A study of Homo sapiens with 8 samples.

Results

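RU-486 given alone was compared with vehicle in the U373 line of human astrocytoma cells, long kept in culture, on 4 of the 8 arrays of the series. The 4 arrays, 2 for each treatment, were chosen by their sample titles, and the comparison covers the 18417 genes whose probe sets carry a single gene symbol, with the probe set of highest mean standing for a gene that has several. The RU-486 cells received 1 µM of the drug for 12 h and no added hormone, and the vehicle cells were collected at the same time. The other 4 arrays, 2 with progesterone at 10 nM plus RU-486 at 1 µM and 2 with progesterone at 10 nM alone, hold the drug against a hormone background and are used here to see the same genes in arrays that this comparison does not share. In all 4 groups the cells had first spent 24 h in medium whose serum was stripped of hormones, so neither RU-486 nor vehicle cells met added steroid before treatment. The titles and the treatment protocol say RU-486, whereas the description and source fields of the drug-treated samples print a different compound number, and the cell line field of all samples shortens the name of the line. The replicates are called biological, but no label says that they came from separate cultures, so p-values measure only the spread between these samples, which may be technical. U373 is 1 cell line, so the values describe that line.

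RU-486, or mifepristone, occupies the ligand pocket of the progesterone and glucocorticoid receptors and holds them in a form that recruits corepressors, so it is used as an antagonist of both. Several gene groups described below belong to the integrated stress response. In it, kinases that sense amino acid shortage, unfolded protein in the endoplasmic reticulum (ER), haem shortage or double-stranded RNA phosphorylate the initiation factor eIF2, which lowers general translation while favouring translation of the transcription factor ATF4. ATF4 and its C/EBP partners bind composite elements in genes for amino acid synthesis, uptake and tRNA charging. The liver X receptors (LXR) are a separate system of ligand-activated receptors that switch on cholesterol export when oxysterols accumulate.

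Values are log2 expression levels on the scale of the deposited table, and a difference is RU-486 minus vehicle unless another pair is named. A level below 6.22, the 95th percentile of 341 olfactory receptor genes, is called dim here, because such receptors are rarely transcribed outside the nose, and 13343 genes had means above it. The 8 array medians lay between 6.93 and 7.02. The SD over genes of the difference between replicates was 0.155 for RU-486, 0.180 for vehicle, 0.169 for the combination and 0.346 for progesterone. The progesterone pair therefore widens the shared estimate of the spread, and with it the SE and p of the comparison, without entering the difference itself. One direction held 66.4% of the variance within groups. The progesterone replicates lay furthest apart on it, at 21.8 and -24.7. RU-486 replicates 1 and 2 scored 4.23 and -3.84 on it and vehicle replicates 1 and 2 scored -3.71 and -18.7, so vehicle replicate 2 stood apart from the other 3 arrays. Its part in the results was not tested beyond the values with each vehicle array left out and with that direction as a covariate.

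The glial identity of the cells held for part of its marker list. VIM and SOX2 (a filament and a stem cell factor of astroglia) were at 13.4 and 12.0, and FABP7, the radial glial fatty acid-binding protein, was at 11.3, as means of 8 arrays. S100B was at 9.59 and GFAP, the astrocyte filament, at 7.54. The water channel AQP4, the glutamate transporter SLC1A2 and ALDH1L1, markers of mature astrocytes, had means of 4.18, 5.21 and 6.19, all dim.

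Sequence was read for one element, the C/EBP-ATF composite motif that ATF4 dimers are known to bind, because the genes with the smallest p included several known targets of ATF4. The motif was searched as TGATGNAA on both strands, so that it reads TTNCATCA where it lies on the other strand, in RefSeq promoter windows (GRCh38.p14) of 250 bases before to 50 bases after each annotated gene start. Of the 12 higher genes with the smallest p, listed below, 10 had a window and 4 held the motif. These 4 are shown first, followed by 4 aminoacyl-tRNA synthetases, of which NARS1 is shown because its difference was small. Each line runs 5′ to 3′ along the strand of the gene, with the motif in capitals.
ASNS (chr7:97872458-97872487, minus strand): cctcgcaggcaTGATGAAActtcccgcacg
CHAC1 (chr15:40953251-40953280, plus strand): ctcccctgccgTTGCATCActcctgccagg
SLC1A4 (chr2:64989381-64989410, plus strand): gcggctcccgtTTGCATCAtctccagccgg
SLC1A3 (chr5:36596357-36596386, plus strand): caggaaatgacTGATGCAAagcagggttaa
AARS1 (chr16:70289675-70289704, minus strand): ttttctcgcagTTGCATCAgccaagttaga
CARS1 (chr11:3057407-3057436, minus strand): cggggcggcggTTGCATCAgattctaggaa
GARS1 (chr7:30594834-30594863, plus strand): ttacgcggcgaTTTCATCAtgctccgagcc
NARS1 (chr18:57621804-57621833, minus strand): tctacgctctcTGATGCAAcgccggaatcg
The first base of the motif lay 68 bases before the gene start for ASNS, 209 for CHAC1, 7 for SLC1A4, 220 for SLC1A3, 187 for AARS1, 2 for CARS1 and 33 for GARS1, and in NARS1 it lay just after the start. The motif was in 3.62% of all 35116 windows and in 1 window or more of 3.59% of the 14239 measured genes with one. It was in 0 of the 9 matched genes among the 12 lower genes with the smallest p. A match describes letters in a window, not a site in use.

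No gene passed the test of RU-486 against vehicle, which asked for a limma adjusted p under 0.05 (0% of 18417 genes called). The smallest limma adjusted p was 0.484, and an unadjusted limma p under 0.05 was reached by 571 genes, where 921 would be expected if no gene differed and all groups varied alike. That count was 1448 in a fit of the 4 RU-486 and vehicle arrays alone, 1490 in a fit of the 6 arrays without the progesterone pair and 1636 with array weights. Of the 571, 396 were higher after RU-486 (2.15% of all genes) and 175 were lower (0.950%). Over 1.5-fold lay 20 genes higher (0.109%) and 24 lower (0.130%), and 1 gene, ASNS, reached 2-fold. With weights that let each group of arrays have its own spread, an alternative fit, 3 genes passed, CHAC1, CPT1A and NUPR1, all higher after RU-486 (smallest limma adjusted p 0.0432). The arrays of both groups did not overlap, with both RU-486 arrays above both vehicle arrays, for 24.0% of all genes, and with both below for 15.7%, and counts of members below are to be read against these shares. The median difference of all genes was 0.014, and 55.3% of genes had a difference above 0. In bulk RNA, fewer cells of a kind and less RNA per cell cannot be told apart.

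The 12 genes with the smallest p among higher genes whose arrays did not overlap were CHAC1, ASNS, PCK2, CPT1A, NUPR1, SLC25A20, SLC1A3, SLC6A9, MST1, CLRN2, SLC1A4 and NMRAL2P. The 12 lower genes were H1-6, SREBF1, PRSS35, ABCA1, F3, HSD17B7P2, FAM138D, KRT15, PPP4R1L, EFNA1, MYLIP and S1PR1. Non-overlap was part of that choice and is no result for them.

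**Figure D1:**
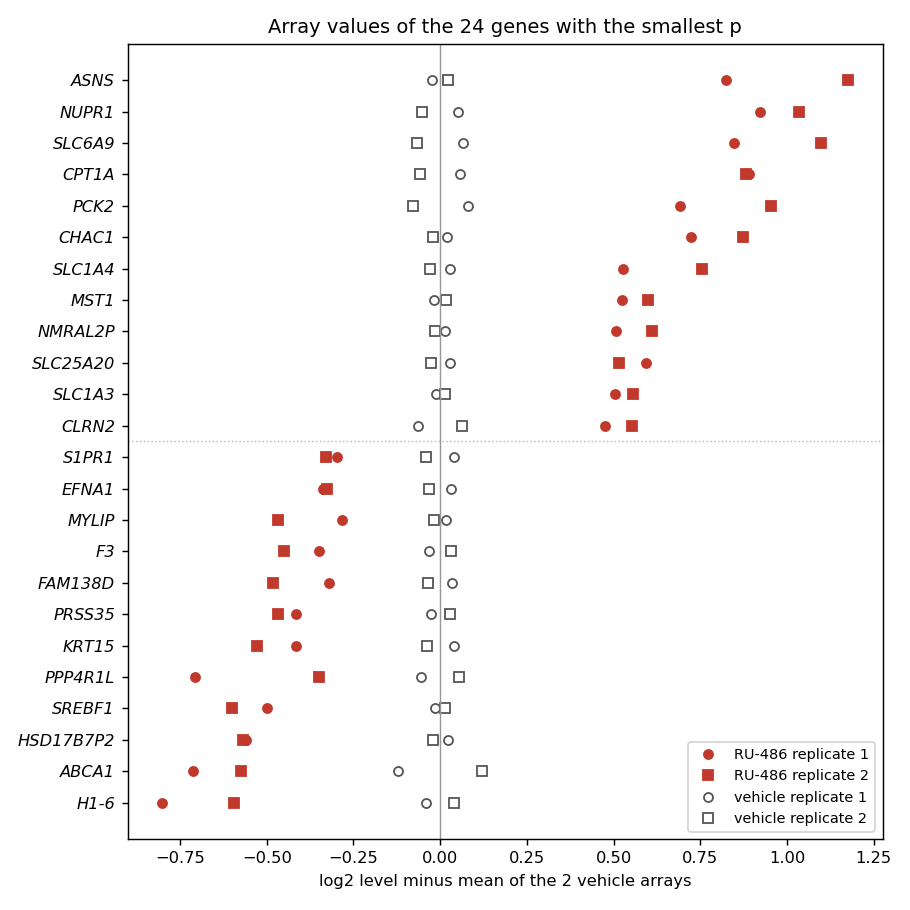
Each row is 1 of the 24 genes, and each point is 1 array, drawn as its log2 level minus the mean of the 2 vehicle arrays of that gene (RU-486 filled, vehicle open, circles for replicate 1 and squares for replicate 2). By the choice of genes, RU-486 arrays lie to the right of the vehicle arrays for the 12 upper genes and to the left for the 12 lower genes. ASNS leads the upper genes with a mean difference of 1.00, and H1-6 has the most negative difference at -0.70.

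The regulators of the integrated stress response had higher means after RU-486 for 11 of 12 genes, with a median difference of 0.17, and 10 of the 12 did not overlap on the higher side. ATF4, the factor at its centre, was at 10.93 and 10.96 in RU-486 cells and at 10.58 and 10.54 in vehicle cells. The ATF4 arrays of each treatment lay close together and the groups did not overlap. The difference was 0.38 ± 0.08 (SE, n = 2 arrays each). Here and below the SE comes from the moderated fit of all 8 arrays, so it is not the spread of the RU-486 and vehicle arrays alone. ATF4 is controlled largely at translation, which these arrays do not measure.

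NUPR1, a small stress-induced chromatin protein and ATF4 target, was at 10.88 and 10.99 in RU-486 cells and at 10.00 and 9.90 in vehicle cells. The difference was 0.98 ± 0.14, or 1.97-fold. TRIB3, a pseudokinase that is induced by ATF4 and feeds back on it, was at 9.60 and 9.92 after RU-486 and at 9.15 and 8.93 after vehicle, a difference of 0.73 ± 0.15 with no overlap. JDP2, a repressor that dimerises with ATF factors, differed by 0.35 ± 0.10, ATF3 by 0.21 ± 0.10 and CEBPB by 0.16 ± 0.09. DDIT3, which encodes the death-promoting factor CHOP, was at 8.87 and 8.96 after RU-486 and at 8.75 and 8.70 after vehicle, a difference of 0.19 ± 0.10. PPP1R15A, the phosphatase subunit that reverses eIF2 phosphorylation, differed by 0.11 ± 0.08 and ATF5 by 0.11 ± 0.10. EIF2AK3, the ER stress kinase PERK, was the 1 regulator with a lower mean, by -0.14 ± 0.12.

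All 13 measured members of the list of amino acid synthesis and one-carbon enzymes, which also holds CHAC1 and PCK2 with other roles, had a higher mean after RU-486. Their median difference was 0.42. The arrays did not overlap for 11 of them, and 8 were at an unadjusted limma p under 0.05. ASNS, the enzyme that makes asparagine, was at 9.65 and 10.01 in RU-486 cells and at 8.81 and 8.85 in vehicle cells. The drug arrays differed from each other more than the vehicle arrays did. The difference was 1.00 ± 0.12 (95% interval 0.71 to 1.29), and ASNS was the gene that reached 2-fold. CHAC1, which breaks down glutathione, was at 8.56 and 8.71 after RU-486 and at 7.86 and 7.81 after vehicle, a difference of 0.80 ± 0.10 (1.74-fold). PCK2, the mitochondrial phosphoenolpyruvate carboxykinase, was at 9.06 and 9.32 after RU-486 and at 8.45 and 8.29 after vehicle, a difference of 0.82 ± 0.11.

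The serine pathway was represented at each step. PHGDH, which opens serine synthesis from glycolysis, was at 11.16 and 11.35 after RU-486 and at 10.66 and 10.44 after vehicle, and PSAT1, the next enzyme, was at 10.58 and 10.85 after RU-486 and at 10.11 and 9.95 after vehicle. Neither gene overlapped, and the differences were 0.71 ± 0.14 for PHGDH and 0.68 ± 0.13 for PSAT1. PSPH, which completes the pathway, had a smaller difference of 0.26 ± 0.12. Downstream, the mitochondrial one-carbon enzymes MTHFD2 and SHMT2 differed by 0.51 ± 0.11 and 0.37 ± 0.11, and PYCR1, which makes proline, by 0.42 ± 0.13. ALDH18A1, which feeds PYCR1, was at 0.04 ± 0.10, and ALDH1L2 was dim. CBS and GPT2 were not analysed here.

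All 11 amino acid transporters had a higher mean after RU-486, with a median of 0.34 and 8 of 11 not overlapping. SLC6A9, the glycine transporter GLYT1, was at 9.32 and 9.57 in RU-486 cells and at 8.54 and 8.40 in vehicle cells, a difference of 0.97 ± 0.16 (1.96-fold). SLC1A4, which exchanges alanine, serine and cysteine, was at 9.65 and 9.87 after RU-486 and at 9.15 and 9.09 after vehicle, a difference of 0.64 ± 0.12. The glutamine exchanger SLC1A5 differed by 0.41 ± 0.12 and the leucine carrier SLC7A5 by 0.31 ± 0.09. SLC1A3 stands outside this list because it is an astrocyte marker, the glial glutamate transporter that clears synapses. It was at 9.44 and 9.49 after RU-486 and at 8.92 and 8.95 after vehicle, with tight pairs and a difference of 0.53 ± 0.08. Of the 9 listed transporters with a promoter window, 5 held TGATGNAA. Of the amino acid enzymes 3 of 9 did, ASNS, CHAC1 and GOT1, of which GOT1 differed by 0.13 ± 0.08. Of the stress regulators 3 of 11 did, ATF3, JDP2 and CEBPG, of which CEBPG differed by 0.06 ± 0.09. Among genes past 1.5-fold with a window it was in 4 of 15 higher and 1 of 21 lower.

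The 19 measured cytosolic aminoacyl-tRNA synthetases, which load amino acids onto tRNA, had a wide spread of differences. 16 had a higher mean, the median was 0.05, and 9 did not overlap on the higher side and 2 on the lower. AARS1, for alanine, was at 11.41 and 11.61 in RU-486 cells and at 11.05 and 10.96 in vehicle cells, a difference of 0.50 ± 0.11. YARS1, for tyrosine, also differed by 0.50 ± 0.11, GARS1, for glycine, by 0.46 ± 0.10, and CARS1, for cysteine, by 0.40 ± 0.10. 7 of the 16 with a promoter window held TGATGNAA (43.8%), and their differences ran from 0.04 for NARS1 to 0.50 for AARS1 with a median of 0.33 and 6 not overlapping. The 9 synthetases without it ran from -0.06 to 0.34 with a median of 0.03 and 2 not overlapping on the higher side, SARS1 and WARS1. Thus NARS1 held the motif with a small difference, and SARS1 and WARS1 were without it at 0.34 and 0.28. The motif search was added with the differences known, so the split is a description.

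**Figure D2:**
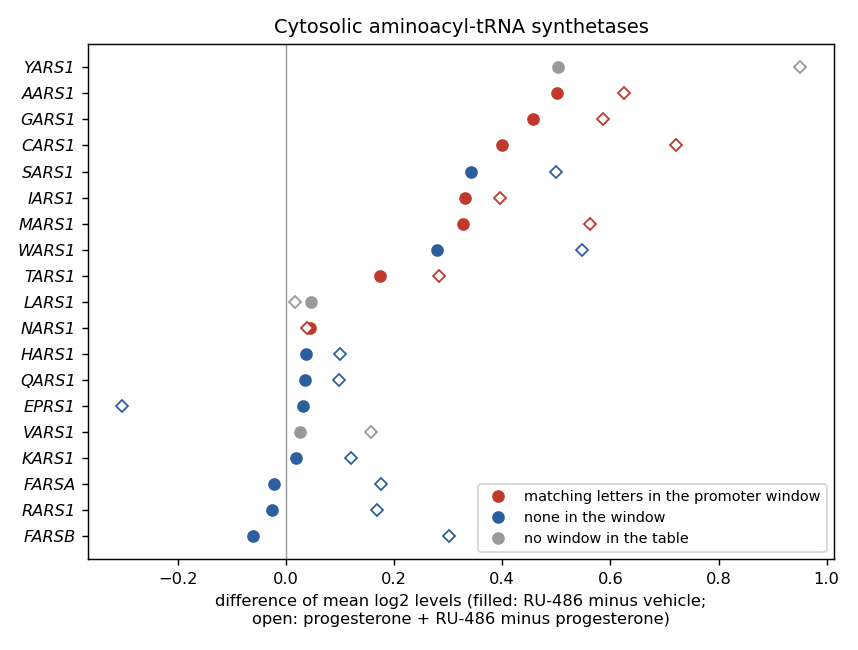
Rows are the 19 synthetase genes, ordered by RU-486 minus vehicle, and the horizontal axis is a difference of mean log2 levels, with filled circles for RU-486 minus vehicle and open diamonds for progesterone plus RU-486 minus progesterone. Red marks a promoter window with TGATGNAA, blue one without it and grey no window, and the red circles have a median of 0.33 against 0.03 for the blue.

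Secreted and growth-restraining outputs of the stress response had a higher mean for 10 of 11 genes, with a median of 0.20 and 9 not overlapping. GDF15, the cytokine that signals cell stress to the brainstem, was at 9.41 and 10.01 in RU-486 cells and at 8.99 and 8.72 in vehicle cells. Its RU-486 arrays were far apart and both above vehicle, a difference of 0.86 ± 0.22. EIF4EBP1, the translation repressor controlled by mTORC1, differed by 0.39 ± 0.09, the angiogenic factor VEGFA by 0.38 ± 0.10 and the tRNA exporter XPOT by 0.35 ± 0.12. The ER chaperones and folding factors, a different arm of the unfolded protein response, had a higher mean for 9 of 17 genes and a median of 0.0046, with 3 not overlapping on each side. XBP1, a transcription factor of that arm, was the member with the smallest p, at 10.53 and 10.50 after RU-486 and at 10.25 and 10.16 after vehicle (0.32 ± 0.08). HERPUD1, which ATF4 also drives, differed by 0.22 ± 0.12, and DNAJB9, a target of spliced XBP1, by -0.17 ± 0.11.

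**Figure D3:**
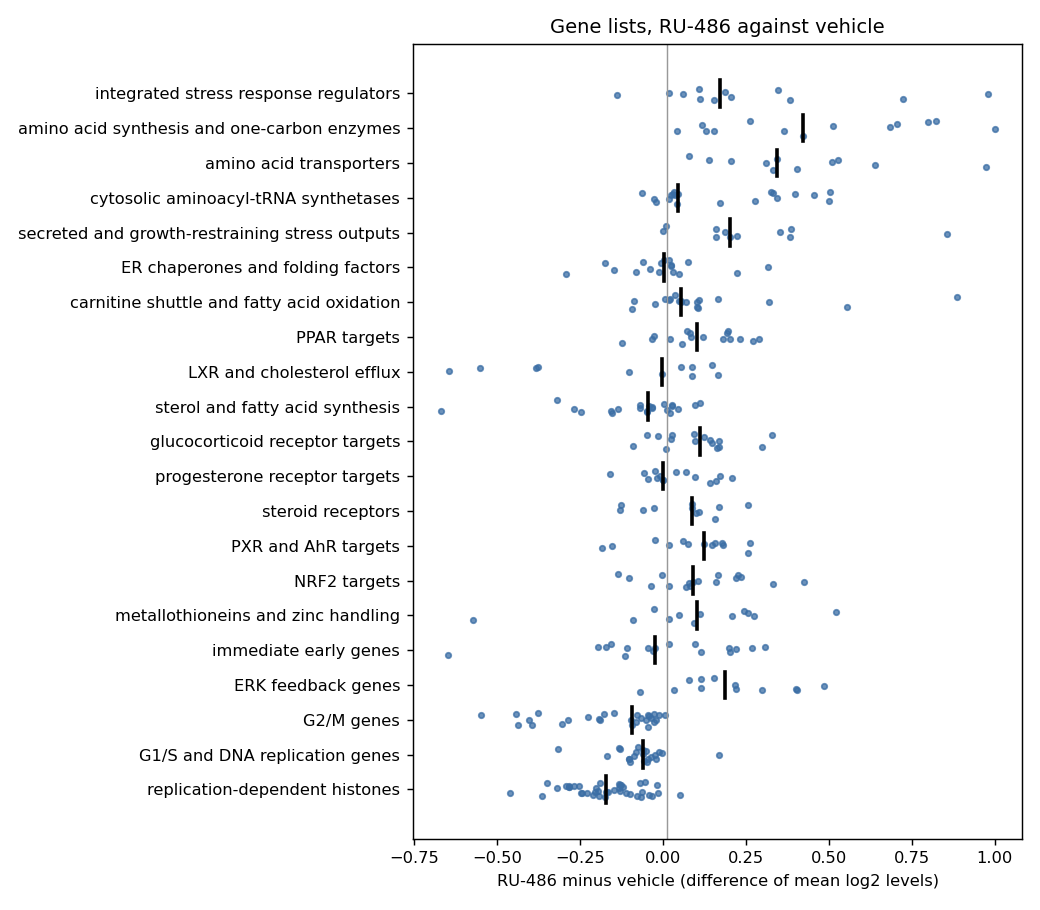
Each row is a gene list, each point a measured member at its RU-486 minus vehicle difference of mean log2 levels, each black bar the list median, and the grey line the median of all genes, 0.014. Amino acid enzymes (median 0.42) and amino acid transporters (0.34) lie furthest to the right and replication-dependent histones (-0.17) furthest to the left.

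Among genes of fat oxidation the largest differences were those of CPT1A and SLC25A20, both of the carnitine shuttle. CPT1A, the outer-membrane enzyme that commits long-chain fatty acids to oxidation, was at 10.71 and 10.70 in RU-486 cells and at 9.87 and 9.76 in vehicle cells. The drug arrays were nearly identical, and the difference was 0.89 ± 0.13 (1.85-fold). SLC25A20, the inner-membrane carrier that takes the resulting acylcarnitines inside, was at 8.67 and 8.59 after RU-486 and at 8.10 and 8.05 after vehicle, a difference of 0.55 ± 0.08. Other shuttle genes differed little, with CPT2, the inner-membrane partner of CPT1A, at 0.0068 ± 0.095, CPT1C at 0.04 ± 0.08 and the carnitine importer SLC22A5 at -0.09 ± 0.08. The whole list of carnitine shuttle and fatty acid oxidation genes had a higher mean for 16 of 19 and a median of 0.06, with 8 not overlapping on the higher side and 1 on the lower. ACAA2, the thiolase of the last step, differed by 0.32 ± 0.08, and ACADVL, the very-long-chain dehydrogenase, by 0.17 ± 0.08. ACADM, the medium-chain dehydrogenase, was at -0.09 ± 0.14 with overlapping arrays. In 0 of the 17 listed genes with a promoter window was TGATGNAA found. Other targets of the fatty acid receptors of the PPAR family, a list that leaves out CPT1A and SLC25A20, had higher means for 13 of 16, with a median of 0.10, and 5 were dim. Among them PPARA, a receptor gene and the member with the smallest p, differed by -0.12 ± 0.08. ANGPTL4, a lipase inhibitor, differed by 0.29 ± 0.21 and ACOT1 by 0.23 ± 0.15. Of this PPAR list 0 members were at an unadjusted limma p under 0.05.

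Several LXR targets had lower means. SREBF1, the regulator of fatty acid synthesis and itself an LXR target, was at 10.29 and 10.19 in RU-486 cells and at 10.78 and 10.81 in vehicle cells, a difference of -0.55 ± 0.08 with tight pairs. ABCA1, the exporter that loads cholesterol onto apolipoproteins, was at 9.42 and 9.56 after RU-486 and at 10.02 and 10.26 after vehicle, a difference of -0.64 ± 0.14. ABCG1, a second exporter, differed by -0.38 ± 0.11, and MYLIP, a ubiquitin ligase that LXR induces, by -0.38 ± 0.09. Of the 11 measured members of the LXR and cholesterol efflux list 6 had a lower mean, and the median was -0.0026. 4 members were lower at an unadjusted limma p under 0.05, namely ABCA1, SREBF1, ABCG1 and MYLIP, and the difference was 0.15 ± 0.17 for ABCG4, an exporter, and 0.06 ± 0.08 for NR1H3, the receptor LXR alpha. In all, 5 members did not overlap on the lower side and 2 on the higher.

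Genes of sterol and fatty acid synthesis had a lower mean for 14 of 22, with a median of -0.04, 8 not overlapping on the lower side and 3 on the higher. In the combination against progesterone the direction was the other one, with 16 of 22 higher and a median of 0.09, where the median of all genes was 0.030. STARD4, which moves cholesterol between membranes, was at 6.68 and 6.90 after RU-486 and at 7.29 and 7.63 after vehicle, a difference of -0.67 ± 0.17. FASN, the fatty acid synthase, differed by -0.32 ± 0.10, INSIG1, the sterol-sensing retention protein, by -0.27 ± 0.08, and ACACA, which makes malonyl-CoA, the inhibitor of CPT1 enzymes, by -0.16 ± 0.08.

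Of the receptors that bind RU-486, NR3C1 was above the dim range and PGR was not. NR3C1, the glucocorticoid receptor, was at 9.92 and 10.07 in RU-486 cells and at 10.07 and 10.17 in vehicle cells, a difference of -0.13 ± 0.12. PGR, the nuclear progesterone receptor, was dim on all 4 arrays, at 4.49 and 4.75 after RU-486 and at 4.59 and 4.44 after vehicle, and its groups overlapped. A dim signal gives no absolute zero, so low expression of PGR cannot be told from none. Of the 11 steroid receptors measured, 6 were dim and 7 had a higher mean.

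Genes known as targets of the glucocorticoid receptor, which RU-486 can block, had higher means after the drug for 13 of 16, with a median of 0.11, 8 not overlapping on the higher side and 0 on the lower. TSC22D3 (GILZ), an anti-inflammatory target, was at 7.57 and 7.77 in RU-486 cells and at 7.48 and 7.20 in vehicle cells, a difference of 0.33 ± 0.12. SGK1, a steroid-induced kinase, was at 9.37 and 9.48 after RU-486 and at 9.21 and 9.05 after vehicle, a difference of 0.30 ± 0.09. ERRFI1, a feedback inhibitor of the EGF receptor, differed by 0.17 ± 0.09 and the clock gene PER1 by 0.15 ± 0.09. FKBP5 was not analysed here. Among targets that the progesterone receptor has in breast or endometrium, 9 of 15 had higher means and the median was 0.0022, and WNT4, the member with the smallest p, differed by 0.21 ± 0.10. Targets of the drug-sensing receptors PXR and AhR had a median of 0.13, but 10 of 13 were dim. Among them CYP1A1, an AhR target, was at 5.56 and 5.70 after RU-486 and at 5.31 and 5.44 after vehicle.

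Oxidant and metal defence genes leaned to higher means. For NRF2 targets 13 of 17 means were higher, 10 members did not overlap on the higher side and the median was 0.09. HMOX1, which degrades haem, was at 10.43 and 10.47 after RU-486 and at 10.13 and 9.92 after vehicle (0.43 ± 0.18), and GCLC, which opens glutathione synthesis, differed by 0.24 ± 0.10. MT1F, a zinc-binding metallothionein, was at 11.58 and 11.53 after RU-486 and at 11.13 and 10.94 after vehicle, a difference of 0.52 ± 0.12. MT1X and MT1E differed by 0.28 ± 0.10 and 0.26 ± 0.09, while the zinc importer SLC39A10 was lower by -0.57 ± 0.21. In the whole list of metallothioneins and zinc handling genes 9 of 12 means were higher, with a median of 0.10. Of these 12, 7 did not overlap on the higher side and 1 on the lower. Metallothionein genes are close copies of each other, so their probe sets may share signal.

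Regulators that restrain ERK signalling and are induced by it had higher means for 11 of 12 genes, with a median of 0.19 and 9 not overlapping. DUSP6, the ERK phosphatase, was at 9.76 and 9.92 in RU-486 cells and at 9.49 and 9.23 in vehicle cells (0.49 ± 0.16). SPRY2, a sprouty inhibitor, differed by 0.41 ± 0.12 and ETV5, an ETS factor downstream of ERK, by 0.40 ± 0.13. Immediate early genes, which growth factors induce within minutes, showed no common direction, with 8 of 17 higher and a median of -0.02. In that list EGR1 had the most negative difference, at 10.01 and 9.84 after RU-486 and at 10.64 and 10.50 after vehicle (-0.65 ± 0.18, no overlap), and MYC had a positive one of 0.31 ± 0.13. ARRDC3, an alpha-arrestin that responds to glucose and hormones, differed by -0.43 ± 0.11, whereas its list as a whole had a median of 0.0050.

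Replication-dependent histones had lower means for 40 of 41 genes, with a median of -0.17, and 30 of 41 did not overlap on the lower side. H3C12 was at 6.84 and 6.85 in RU-486 cells and at 7.38 and 7.24 in vehicle cells (-0.46 ± 0.15), and H1-3, a linker histone, differed by -0.36 ± 0.13. H3C7 differed by -0.29 ± 0.10 and H2BC17 by -0.25 ± 0.07. These genes are near-identical within a class and their probe sets may share signal, so the 41 are not separate measurements. Without vehicle replicate 1 the histone median was -0.14 and without vehicle replicate 2 it was -0.20. In the combination against progesterone 29 of 41 were lower, with a median of -0.11, where the median of all genes was 0.030.

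H1-6, a linker histone known from testis, had the smallest p of all lower genes. It was at 7.67 and 7.88 after RU-486 and at 8.43 and 8.51 after vehicle, a difference of -0.70 ± 0.10.

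Genes of the G2/M phase had lower means for 27 of 28, with a median of -0.09 and 18 of 28 not overlapping on the lower side, and G1/S and DNA replication genes for 21 of 22, with a median of -0.06 and 12 not overlapping. CDK1, the mitotic kinase, was at 9.98 and 10.07 in RU-486 cells and at 10.36 and 10.30 in vehicle cells (-0.30 ± 0.17). KIF11, a spindle motor, was at 9.31 and 9.55 after RU-486 and at 9.63 and 10.11 after vehicle (-0.44 ± 0.29), so that vehicle replicate 2 carried much of its difference. BUB1B, a spindle checkpoint kinase, differed by -0.19 ± 0.09. CDC6, which licenses replication origins, was the 1 member of its list with a higher mean, by 0.17 ± 0.08. No member of either list was at an unadjusted limma p under 0.05 in the fit of 8 arrays. In the fit of the 4 RU-486 and vehicle arrays 4 G2/M genes were, CDK1, BUB1B, MAD2L1 and DLGAP5, and in the fit of 6 arrays 6 were, KIF11 included, all lower after RU-486. Of the G1/S genes 1 was in each of those fits, CCNE2, which was lower, with 4 arrays and CDC6, which was higher, with 6. Of all 18417 genes, 1448 were at an unadjusted limma p under 0.05 with 4 arrays and 1490 with 6, and these counts of members are to be read against that. In the combination against progesterone the G1/S list had a positive median, 0.09, with 17 of 22 higher, while the G2/M list was at -0.09 with 17 of 28 lower. The median of all genes in that contrast was 0.030.

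The remaining genes among the 24 had varied roles. MST1, a hepatocyte growth factor-like protein, was at 6.37 and 6.45 after RU-486 and at 5.83 and 5.86 after vehicle (0.56 ± 0.09), near the dim range and with close copies elsewhere in the genome. NMRAL2P, a transcribed pseudogene, was at 10.51 and 10.61 after RU-486 and at 10.02 and 9.99 after vehicle (0.56 ± 0.10). CLRN2, a gene of inner ear hair cells, was dim throughout (0.52 ± 0.08). Lower by -0.40 ± 0.09 was F3, tissue factor, which starts blood clotting, and the keratin KRT15 was lower by -0.47 ± 0.11. EFNA1, a ligand of Eph receptors, differed by -0.33 ± 0.08, S1PR1, a receptor of sphingosine phosphate, by -0.31 ± 0.08 and the protease gene PRSS35 by -0.44 ± 0.08. HSD17B7P2, a pseudogene of a sterol synthesis enzyme, differed by -0.56 ± 0.13, and PPP4R1L and FAM138D, by -0.53 ± 0.13 and -0.40 ± 0.09, were dim.

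The 20 higher and 24 lower genes past 1.5-fold did not rest on the arrays in the same way. Among the 20 higher genes 17 stayed past 1.5-fold against vehicle replicate 1 alone and 18 against vehicle replicate 2 alone. Among the 24 lower genes 5 stayed past it against vehicle replicate 1 alone and 23 against vehicle replicate 2 alone. Vehicle replicate 2 was above vehicle replicate 1 in 23 of these 24, and by over 0.5 in 14, where 2.17% of all genes had such a gap. All 20 higher genes and 8 of the 24 lower ones were at an unadjusted limma p under 0.05.

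Examples of the lower genes with split vehicle arrays, chosen after their values were seen, are THOC2, SMC3 and FAM111B. THOC2, of the mRNA export complex, was at 8.29 and 8.56 after RU-486 and at 8.65 and 9.48 after vehicle. SMC3, a cohesin subunit, was at 8.44 and 8.59 after RU-486 and at 8.79 and 9.46 after vehicle, and FAM111B at 8.52 and 8.63 after RU-486 and at 8.80 and 9.64 after vehicle. In each the vehicle arrays differed from each other by more than the nearer one differed from RU-486. Without vehicle replicate 2 the count of genes past 1.5-fold lower was 9, without vehicle replicate 1 it was 347, and without RU-486 replicate 2 it was 152. On the higher side it was 43 without vehicle replicate 1 and 32 without RU-486 replicate 1.

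**Figure D4:**
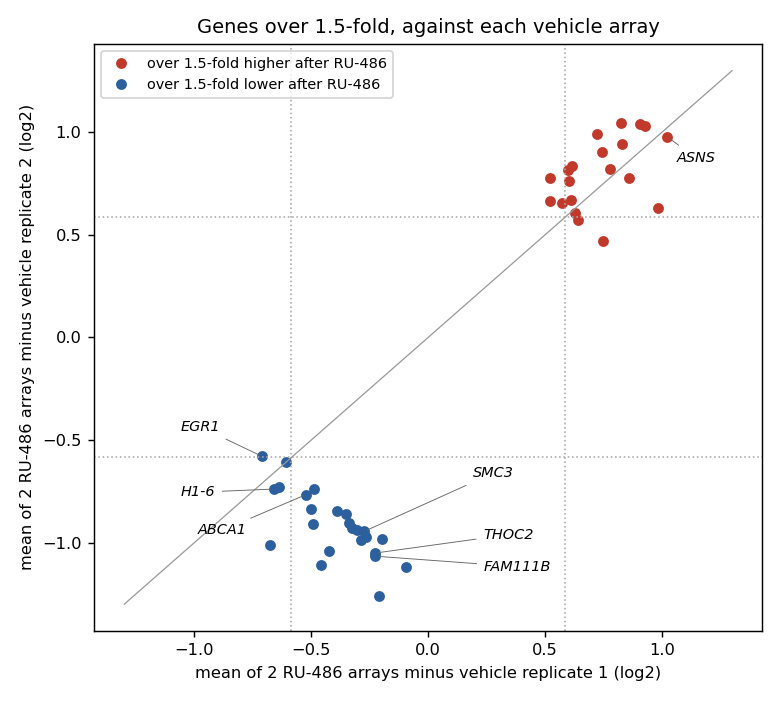
Each point is 1 of the 44 genes past 1.5-fold, with the mean of the 2 RU-486 arrays minus vehicle replicate 1 across and minus vehicle replicate 2 up, both in log2 units, dotted lines at 1.5-fold and the diagonal where both agree. The 20 higher genes (red) lie around the diagonal, while most of the 24 lower genes (blue) lie below it, of which 23 are past the lower dotted line against vehicle replicate 2 and 5 against vehicle replicate 1.

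The same genes were then read in the 4 arrays that RU-486 against vehicle does not share, as the combination minus progesterone. Of the 20 higher genes 15 were higher there too, 12 by over 1.5-fold and 13 without overlap, with a median of 0.84. No gene was called there either, by the same limma threshold, and 2686 were at an unadjusted limma p under 0.05. Among all 10176 genes above 0 in RU-486 against vehicle, 61.5% were higher, 0.452% by over 1.5-fold and 30.5% without overlap. ASNS was at 9.84 and 9.87 in combination cells and at 8.62 and 8.52 in progesterone cells, a difference of 1.28 ± 0.12. CPT1A differed there by 1.20 ± 0.13, SLC6A9 by 1.20 ± 0.16, CHAC1 by 1.13 ± 0.10 and NUPR1 by 1.04 ± 0.14. ATF4 differed by 0.59 ± 0.08 and DDIT3 by 0.69 ± 0.10.

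All 24 lower genes were lower in the combination than in progesterone, 15 by over 1.5-fold and 14 without overlap, with a median of -0.68. Among all 8241 genes below 0 in RU-486 against vehicle, 49.3% were lower, 6.03% by over 1.5-fold and 19.4% without overlap. ABCA1 differed there by -0.83 ± 0.14, SREBF1 by -0.40 ± 0.08 and H1-6 by -0.23 ± 0.10. THOC2 was at 8.05 and 8.03 in combination cells and at 8.23 and 9.75 in progesterone cells, so replicate 2 was again the higher of the cells without RU-486. FAM111B was at 8.18 and 8.20 in combination cells and at 8.30 and 10.29 in progesterone cells. On the within-group direction the combination arrays scored 16.7 and 8.11 and the progesterone arrays 21.8 and -24.7, so vehicle replicate 2 and progesterone replicate 2 had the lowest scores of all 8 arrays. The part of that direction in the lower genes was not tested beyond its use as a covariate, with which 5 genes were over 1.5-fold lower after RU-486 than after vehicle. The mean scores of RU-486 and vehicle also differ, so that fit can take out part of the difference between them. Over 18417 genes the Pearson correlation of both differences was 0.407, and 0.531 over the genes above 6.22, as a description across genes, which share arrays and are not independent. For the difference between both RU-486 effects 0 genes were called (smallest limma adjusted p 0.828), with 972 at an unadjusted limma p under 0.05.

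**Figure D5:**
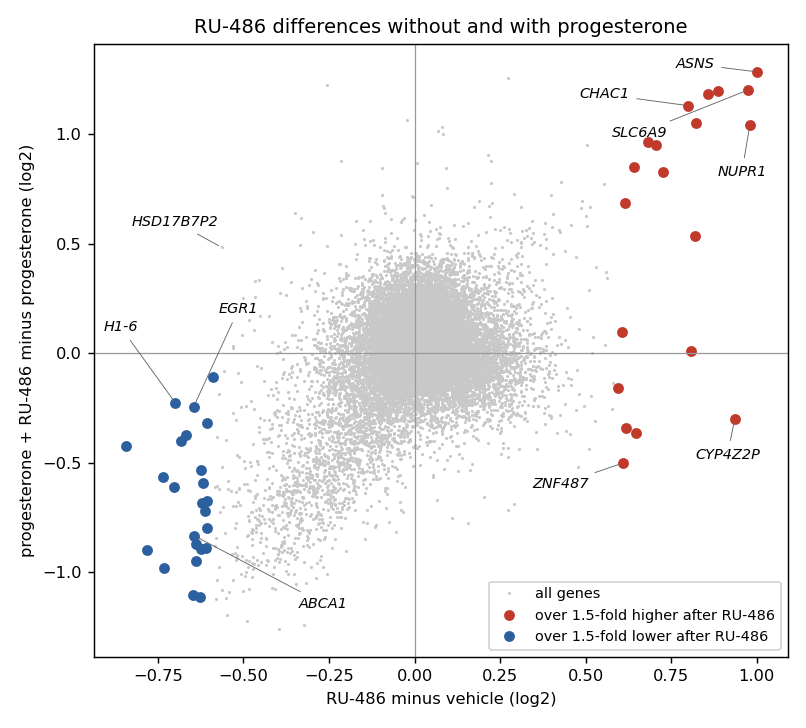
Each point is a gene, with RU-486 minus vehicle across and progesterone plus RU-486 minus progesterone up, both as differences of mean log2 levels. 15 of the 20 genes past 1.5-fold higher (red) and all 24 past 1.5-fold lower (blue) have the same sign on both axes, and ASNS lies furthest to the upper right at 1.00 and 1.28.

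Markers of other cell types gave no list with a large difference. Neuron markers had a median of 0.08 with 7 of 11 higher, oligodendrocyte markers 0.04 with 6 of 9, endothelial markers 0.02 with 5 of 9, epithelial markers 0.04 with 5 of 8 and fibroblast markers 0.05 with 7 of 9. Markers of microglia and leukocytes had a higher mean for all 12, with a median of 0.09, 9 of them dim. Of these 12, 6 did not overlap on the higher side, as did 24.0% of all genes. Their summed level, as log2 of the summed linear values, was 11.14 and 11.12 in RU-486 cells and 11.05 and 11.01 in vehicle cells. PTPRC, the leukocyte marker CD45, was at 3.45 and 3.37 after RU-486 and at 3.46 and 3.34 after vehicle, and AIF1, of microglia, at 4.64 and 4.66 after RU-486 and at 4.46 and 4.71 after vehicle, so both defining markers were dim and overlapped. The part of these markers in the other results was not tested. The astrocyte list itself had a median of -0.0054, with SLC1A3 its most positive member and GFAP, at 7.54 and 7.20 after RU-486 and at 7.60 and 7.66 after vehicle, its most negative (-0.26 ± 0.13).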

How the data were processed

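The deposited table gives log2 levels, made by the authors, of 33297 probe sets of an Affymetrix Human Gene ST array. RMA, oligo and limma are named, without versions, per the submitters' processing notes. RMA equalises distributions between arrays, so a shift shared by most genes would not appear, and it compresses differences of dim genes. Other filters are not given in the sources used here.

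Of the probe sets 19460 carry 1 gene symbol in the platform annotation, 1754 several and 12083 none. The highest-mean probe set stood for each of 769 genes with several. Arrays were grouped by their titles. The linear model (lmFit, then eBayes, of limma 3.58.1 under R 4.3.3) had 4 group means over all 8 arrays, with 4 residual degrees of freedom, Benjamini-Hochberg adjustment over 18417 genes and a threshold of 0.05. No filter on dim genes was used. For arrays, precision is limited by their number.

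Named genes are the 12 higher and 12 lower genes with the smallest p and no overlap, small RNA, olfactory receptor and uncharacterised genes left out, members of 5 lists (stress regulators, amino acid enzymes, fat oxidation, LXR and steroid receptors), up to 4 members of each other pathway list with the smallest p, and cell type markers. Other named genes were chosen after their values were seen. The members, lists, motif and tests were all chosen with earlier results of these data known. Promoter windows are from RefSeq, GRCh38.p14, and no genome was used. The labels give equal replicate numbers no meaning, so the fit has no pairing. Alternatives covered array sets, weights, replicate block, axis covariate, normalization, dim genes, probe set choice, prior and leaving out each array.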

Additional observations from a re-analysis of the deposited data

Results flagged for a closer look

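The 59 genes examined were the 24 with the smallest p and the 44 past 1.5-fold, without double counting. Of these, 5 had both RU-486 arrays on one side of vehicle and both combination arrays on the other side of progesterone. The 24 had been chosen for no overlap between RU-486 and vehicle, so for them that condition was met in advance. The share of all genes with this pattern was not counted, so the 5 cannot be set against it. The differences below are on the log2 scale, RU-486 minus vehicle first and combination minus progesterone second. CLRN2 was at 0.515 and -0.195, ZNF487 at 0.608 and -0.503, LINC01667 at 0.648 and -0.364, and the small nuclear RNA gene RNU5A-1 at 0.594 and -0.159. HSD17B7P2 was at -0.563 and 0.483. The limma adjusted p for the difference between both effects was 0.828 for each of the 5, so none was shown to differ after adjustment over all genes. ZNF487, LINC01667 and RNU5A-1 were chosen after their values were seen.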

How the results depend on the processing

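With 2 arrays a group, limited signal over background for dim genes and 1 probe set per gene, small differences could not be resolved. The count of called genes for RU-486 against vehicle was 3 with array weights and 0 under every other alternative run, the replicate block included (smallest limma adjusted p 0.427, with 946 genes at an unadjusted limma p under 0.05, and 0 called). For the combination against progesterone the count was 0, and it was 17 with the within-group axis as covariate, 17 with a trend and robust prior, 1 with each array centred on its median, and from 0 to 1090 when 1 array was left out, 1090 being without progesterone replicate 1. Genes over 1.5-fold lower after RU-486 numbered 24, and 5 with the axis covariate, 41 with median centring, 245 with all probe sets tested and from 9 to 347 when 1 array was left out (9 without vehicle replicate 2, 347 without vehicle replicate 1). Genes over 1.5-fold higher numbered 20, and 189 with all probe sets, which are more features, and from 20 to 43 when 1 array was left out (43 without vehicle replicate 1). Median centring moved the median of all genes to -0.016. Of 32 list medians, 8 moved by more than the spread between replicates with median centring, 8 with the axis covariate, 8 without vehicle replicate 2 and 6 without vehicle replicate 1. With the axis covariate 7 list medians changed sign, those of oligodendrocyte, endothelial and epithelial markers among them, and with median centring 5 did, ER chaperones and progesterone receptor targets among them. Deviations of equally numbered replicates correlated by 0.229 between RU-486 and vehicle and by 0.197 to 0.511 over the 6 pairs of groups, but 2 numbers cannot settle whether they pair the samples. Among 111 genes checked in this way, 6 turned their sign. With 1 array left out NARS1 ran from -0.058 to 0.15, AIF1 from -0.062 to 0.18, CPT1C from -0.0060 to 0.081, PGR from -0.017 to 0.23, PTPRC from -0.050 to 0.075 and CPT2 from -0.026 to 0.040. With the axis covariate and with median centring PTPRC was at -0.027 and -0.018, and CPT2 at -0.015 and -0.024. The causes were not tested.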
